A study of Mus musculus with 2 samples.

Results

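Mir122, Mir192, Mir194-1, Mir194-2 and Mir215 are microRNA genes known from liver, gut and kidney epithelium, and here they were measured in the embryonic mouse heart. They were taken by their GENCODE M21 symbols from the 1973 gene rows of each table, and all 5 were found. The material was whole heart of B6NCrl mouse embryos at embryonic day 12.5, pooled from males and females. No treatment, transgene or mutant allele is named for it, and 2 biological replicates gave 1 small-RNA library each. The labels list the same donor entry for both replicates, and each is a pool, so differences between embryos cannot be seen. All samples form 1 group, so the questions open to these data are how much of each microRNA the heart libraries held and whether both libraries held it alike.

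MicroRNAs are cut from hairpin precursors, and bases 2 to 8 of the mature strand, the seed, set most of their target choice. Mir122 is the dominant microRNA of hepatocytes, where it is linked to lipid and cholesterol metabolism and to the differentiated state of the cell. Mir192, Mir215 and the Mir194 genes are enriched in intestine, liver and kidney. They depend on hepatocyte nuclear factors in those epithelia, and in human cells Mir192 and Mir215 have been tied to p53 and cell cycle arrest. None of them is regarded as a heart muscle microRNA, and at this stage the liver is also the main site of red blood cell formation.

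The mature strands are shown because they decide which genes can be told apart by reads. RefSeq entries for GRCm38.p6 matched 4 of the genes, and the seed is in capitals, 5′ to 3′.
miR-192-5p: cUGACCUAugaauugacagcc
miR-215-5p: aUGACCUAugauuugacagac
miR-194-5p: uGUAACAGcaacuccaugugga
miR-194-1-3p: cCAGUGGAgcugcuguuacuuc
miR-194-2-3p: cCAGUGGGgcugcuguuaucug
miR-192-5p and miR-215-5p share the seed UGACCUA, which no other name among the 1679 mature names searched holds. Counted from the 5′ end, with the base of miR-192-5p first, they differ by C1A, A12U and C20A and are identical at 18 of 21 positions. miR-194-5p, with the seed GUAACAG, is the same in Mir194-1 and Mir194-2. The 3p strands of these genes differ by A8G, C19U, U20C and C22G, with the base of miR-194-1-3p first, and A8G changes the last base of the seed.

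These differences bear on the counts, since reads that fit several places stand in a row of their own and in no gene's count. The Mir194-1 and Mir194-2 hairpins share a stretch of 22 bases, which is the length of miR-194-5p, so a read of exactly that strand fits both genes. Counts of these genes therefore rest on distinguishing reads, and they do not measure the total of miR-194-5p. Among 2201 other annotated microRNA hairpins, the longest stretch shared with Mir192 was 13 bases, with Mir122 12 bases and with Mir215 11 bases. The printed mature strands are 21 or 22 bases long, so counts were compared between genes with no correction for length.

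The genes occupy 3 places on mm10. Chromosome 1 holds Mir194-1 (ENSMUSG00000065581.1) at 185313319 to 185313385, and Mir215 (ENSMUSG00000065562.1) follows 195 bases on, from 185313581 to 185313692, both on the plus strand. Both sit inside the antisense transcript 2010103J01Rik, Mir194-1 in its intron and Mir215 over an exon, and within an intron of Iars2 on the other strand. Chromosome 19 holds Mir194-2 (ENSMUSG00000065582.1) at 6264643 to 6264728, and Mir192 (ENSMUSG00000065523.1) lies 115 bases on, from 6264844 to 6264932, both on the plus strand between Atg2a and Gm14963. Mir122 (ENSMUSG00000065402.1) is the plus-strand gene of chromosome 18 between 65248861 and 65248926, over an exon of the long non-coding RNA AC157910.3.

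Depth was similar in both libraries, with 5279908 sense counts of 10601121 reads in replicate 2 and 4478599 of 9235580 in replicate 1. Levels are CPM, counts scaled to a common total of sense counts over all genes. The limit that a count of 0 allows, taken as 3 counts, was 0.568 CPM for replicate 2 and 0.670 CPM for replicate 1. The 95% intervals are exact Poisson intervals for levels and exact binomial intervals for ratios, and since the reads carry no stated molecular identifiers, both cover only the error of counting. The heart muscle microRNAs encoded in myosin genes marked the tissue, with Mir208b at 50918 ± 1313 CPM, Mir208a at 9885 ± 160 CPM and Mir499 at 2138 ± 34.1 CPM (SD, n = 2). Mir1a-1 and Mir133a-1, which have further genomic copies, stood at 3.60 ± 1.61 and 1.68 ± 1.11 CPM (SD, n = 2). Reads that fit several copies are in no gene's count, so these 2 levels do not measure the total of either microRNA.

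All 5 liver and gut genes were detected in both heart libraries, each with at least 144 counts. Together they held 430.1 CPM in replicate 2 and 586 CPM in replicate 1, or 0.0508% ± 0.0110 (SD, n = 2) of the sense counts. Reads that fit both Mir194 genes are not in these values, so they do not give the total of these microRNAs. Without Mir122 the sum was 398 CPM in replicate 2 and 405 CPM in replicate 1, so the spread of the whole sum came with Mir122. In bulk tissue, fewer cells of a type and less RNA per cell cannot be told apart.

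Mir215 had the highest level of the liver and gut genes in both libraries, by counts without reads that fit both Mir194 genes. It had 1414 counts in replicate 2 (268 CPM, interval 254 to 282) and 1235 counts in replicate 1 (276 CPM, interval 261 to 292). The intervals overlap, and the mean was 272 ± 5.62 CPM (SD, n = 2), a coefficient of variation of 2.07%. Mir215 made up 62.3% of the member counts in replicate 2 and 47.1% in replicate 1.

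Mir192, which carries the same seed, was much lower. It had 250 counts in replicate 2 (47.3 CPM, interval 41.7 to 53.6) and 233 in replicate 1 (52.0 CPM, interval 45.6 to 59.2). The level was alike in both libraries, with a mean of 49.7 ± 3.31 CPM (SD, n = 2). Within a library, the ratio of Mir192 to Mir215 was 0.177 in replicate 2 (interval 0.154 to 0.202) and 0.189 in replicate 1 (interval 0.163 to 0.217), a mean of 0.183 ± 0.00839 (SD, n = 2). Counts of the genes with this seed thus came mainly from chromosome 1, and the gap between the genes was many times its spread between libraries. The tables do not separate the 5p from the 3p strand of a gene. How far ligation or amplification favours either strand was not tested, and both libraries would share such an error.

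Mir194-2, the upstream neighbour of Mir192, had 213 counts in replicate 2 (40.3 CPM, interval 35.1 to 46.1) and 203 in replicate 1 (45.3 CPM, interval 39.3 to 52.0). Its mean was 42.8 ± 3.52 CPM (SD, n = 2). Mir192 stood slightly above it in each library, by a ratio of 1.17 in replicate 2 (interval 0.974 to 1.42) and 1.15 in replicate 1 (interval 0.947 to 1.39). Both intervals include 1, so a difference within this pair was not detectable at this depth.

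Mir194-1, beside Mir215, had 223 counts in replicate 2 (42.2 CPM, interval 36.9 to 48.2) and 144 in replicate 1 (32.2 CPM, interval 27.1 to 37.9). It was the only gene of the set with a higher level in replicate 2, and its mean was 37.2 ± 7.13 CPM (SD, n = 2). Mir215 exceeded Mir194-1 by a ratio of 6.34 in replicate 2 (interval 5.50 to 7.34) and 8.58 in replicate 1 (interval 7.21 to 10.3). The chromosome 1 pair was therefore uneven in both libraries while the counts of the chromosome 19 pair were near each other. Since miR-194-5p reads cannot be assigned, these ratios compare countable reads and not amounts of transcript. The ratio of Mir194-1 to Mir194-2 was 1.05 in replicate 2 (interval 0.864 to 1.27) and 0.709 in replicate 1 (interval 0.569 to 0.883), so Mir194-1 was the lower copy in replicate 1, while no difference was detectable in replicate 2.

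**Figure D1:**
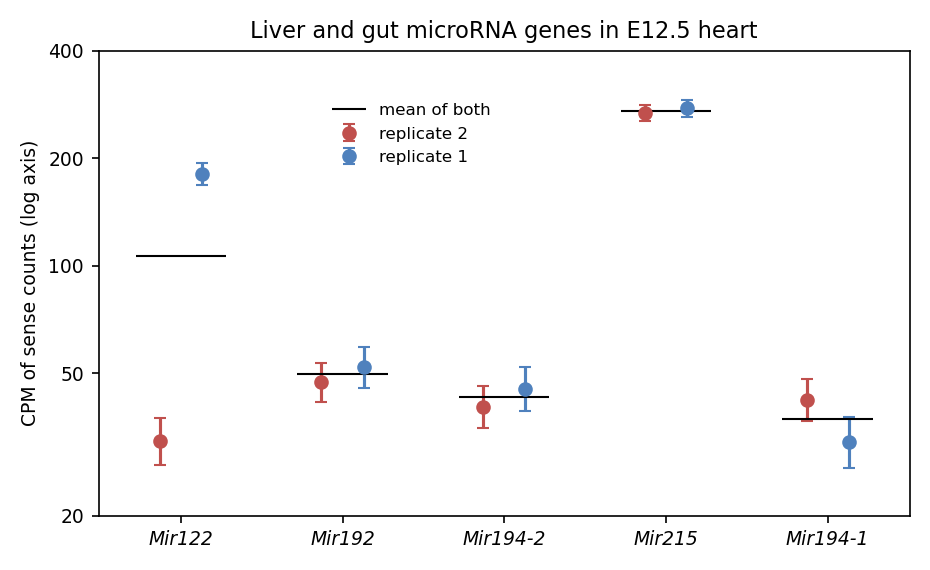
CPM of sense counts (log axis) of each liver and gut microRNA gene in the heart libraries of replicate 2 (left, red) and replicate 1 (right, blue), with 95% Poisson counting intervals and the mean of both as a black line. Mir215 was at 268 CPM in replicate 2 and 276 CPM in replicate 1, while Mir122 was at 32.4 CPM in replicate 2 and 181 CPM in replicate 1, with intervals far apart.

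Mir122, the hepatocyte microRNA, differed between the libraries. It had 171 counts in replicate 2 (32.4 CPM, interval 27.7 to 37.6) and 809 in replicate 1 (181 CPM, interval 168 to 194). It was the lowest of the 5 genes in replicate 2 and the second highest in replicate 1. The mean was 107 ± 105 CPM (SD, n = 2), so the SD was 98.4% of the mean and the mean stands for neither library. Mir122 made up 7.53% of the member counts in replicate 2 and 30.8% in replicate 1.

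Ordered by mean level the genes ran Mir215, Mir122, Mir192, Mir194-2 and Mir194-1. Mir215 lay above all the others in both libraries, again by counts that leave out reads fitting both Mir194 genes. The place of Mir122 depended on the library, Mir192 and Mir194-2 were within counting error of each other, and the ranges of Mir194-2 and Mir194-1 overlapped. In the list of 712 genes with a count in either library, Mir215 ranked 132, Mir122 177, Mir192 215, Mir194-2 227 and Mir194-1 236. The closest genes by mean level were Mir494 (273 CPM) and Mirlet7f-2 (272 CPM) around Mir215, Mir376c (113 CPM) and Mir493 (97.9 CPM) around Mir122, and Mir331 (51.5 CPM) and Mir20b (49.4 CPM) around Mir192. Mir666 (44.0 CPM) and Mir760 (42.0 CPM) stood next to Mir194-2, and Mir292 (37.6 CPM) and Mir378c (36.9 CPM) next to Mir194-1. Each member's range over the libraries overlapped that of both of these neighbours, and also that of the next gene on either side. For Mir122, whose range runs from 32.4 to 181 CPM, overlap with genes of a near mean was fixed beforehand and does not place it. The second neighbours were Mir675 and Mir328 for Mir215, Mir187 and Mir29c for Mir122, Mir96 and Mir103-2 for Mir192, Mir92-2 and Mir702 for Mir194-2, and Mirlet7a-2 and Mir193b for Mir194-1. Within a library, Mir215 was far below the cardiac Mir208b, which exceeded it by a ratio of 187 in replicate 2 and 188 in replicate 1.

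**Figure D2:**
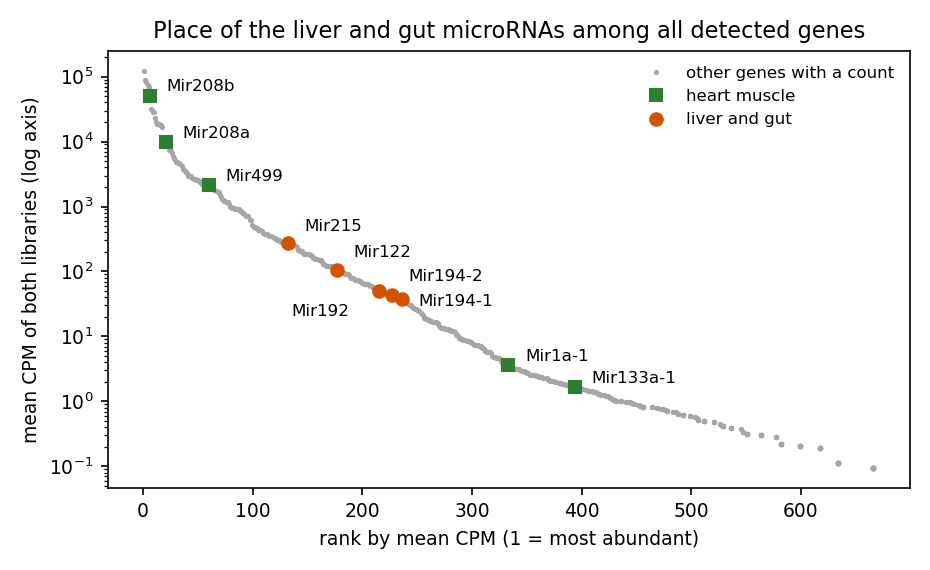
Mean CPM of both libraries (log axis) against rank for the 712 microRNA genes with a count. By mean level, the liver and gut genes (orange circles) stand at ranks 132 to 236, from 272 to 37.2 CPM. Mir122 was at 32.4 CPM in replicate 2 and 181 CPM in replicate 1, so its mean stands for neither library. The heart muscle genes (green squares) Mir208b, Mir208a and Mir499 lie above them. Mir1a-1 and Mir133a-1 lie below, counted without reads that fit several genomic copies. All ranks rest on counts without such reads.

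The difference between libraries was then set against all genes, as replicate 2 over replicate 1. Of 444 genes with at least 10 counts in total, 25 (5.63%) were at least 2-fold apart, and 11 (2.48%) were at least 2-fold lower in replicate 2. Of the members, 1 of 5 was past that fold, Mir122, with a ratio of 0.179 (interval 0.151 to 0.212), a log2 ratio of −2.48, or 5.58-fold higher in replicate 1. Of the 444 genes, 4 had a log2 ratio as far from 0, Mir122 included. Among the 286 genes with at least 100 counts it was the only one so far from 0, and only 2 of these genes were past 2-fold. The other gene past 2-fold was Mir451a.

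Of the remaining members, 3 had a ratio whose interval includes 1. Mir215 had a ratio of 0.971 (interval 0.899 to 1.05), Mir192 one of 0.910 (interval 0.758 to 1.09) and Mir194-2 one of 0.890 (interval 0.731 to 1.08). Mir194-1 had a ratio of 1.31 (interval 1.06 to 1.63), which leaves out 1. The median log2 ratio over the 5 members was −0.14, beside −0.01 over the 286 genes with at least 100 counts, and 4 of 5 members were lower in replicate 2, beside 51.4% of those genes. The median coefficient of variation of these genes was 6.66%. Mir215 at 2.07% was below it, Mir192 at 6.65% near it, and Mir194-2 at 8.23%, Mir194-1 at 19.2% and Mir122 at 98.4% were above it.

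An exact two-sided binomial test of the 2 counts of each gene, with Benjamini-Hochberg adjustment over 712 genes, called 119 genes (16.7%). It called 1 of 5 members, Mir122, while Mir194-1 had an adjusted p of 0.0679 in that exact test. Mir194-1 passed with library sizes scaled by TMM (adjusted p = 0.0478, exact binomial test) and over all reads (adjusted p = 0.0348, exact binomial test). The test holds counting error alone and compares these libraries, not conditions, so it does not set Mir122 against the spread among further replicates.

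By the distance between log2 ratios over the 2 libraries, no gene of at least 10 CPM had a pattern near that of Mir122. The nearest were Mir6240 (log2 ratio −0.92), Mir615 (−0.71) and Mir10b (−0.67). For Mir215 the nearest were Mir214, Mirlet7a-1 and Mir15b, for Mir192 they were Mir34c, Mir195a and Mir700, and for Mir194-2 they were Mirlet7c-1, Mir1193 and Mir154, all within 0.01. For Mir194-1 they were Mir30b (log2 ratio 0.40), Mir301 (0.38) and Mir222 (0.41), beside its own 0.39. With 2 libraries this measure is a single number per gene, and many genes lie near 0.

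**Figure D3:**
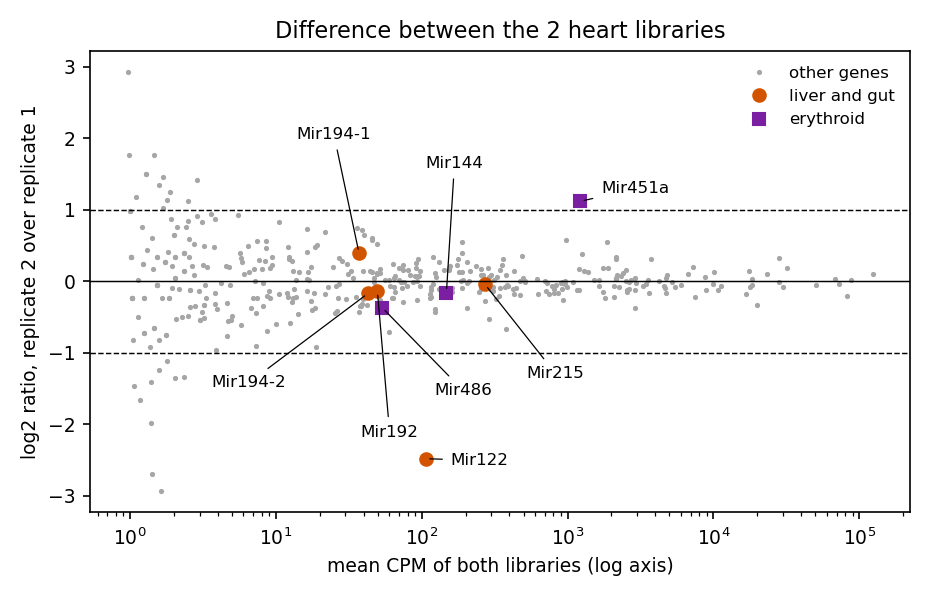
Log2 ratio of replicate 2 over replicate 1 against mean CPM (log axis) for the 444 genes with at least 10 counts in total, with dashed lines at 2-fold. Mir122 lies at −2.48, apart from the other liver and gut genes (orange circles, −0.17 to 0.39), and Mir451a lies at 1.12 among the erythroid genes (purple squares).

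Markers of other cell types were read in the same libraries. The erythroid list held 1858 CPM in replicate 2 and 986 CPM in replicate 1, with all 3 genes above 10 CPM in both. Mir451a, made in red blood cell precursors, stood at 1671 CPM in replicate 2, against 770 CPM in replicate 1, which is a ratio of 2.17. It thus differed in the direction opposite to Mir122. Its cluster neighbour Mir144 had 139.8 CPM in replicate 2 and 156 CPM in replicate 1. Mir486, also known from red cells, had 46.8 CPM in replicate 2 and 60.3 CPM in replicate 1, so both were lower in replicate 2. The exact binomial test between libraries called Mir486 (adjusted p = 0.0261) but not Mir144 (adjusted p = 0.188). The part of the erythroid genes in the difference of Mir122 was not tested.

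The epithelial list, with all 10 genes above 10 CPM in both libraries, held 1471 CPM in replicate 2 and 1447 CPM in replicate 1, led by Mir429 at 433 ± 38.2 CPM (SD, n = 2). The mean of Mir215 was thus below that of Mir429 and, at 272 against 294 CPM, below that of Mir203, the second highest gene of that list. The ratio of its sums was 1.02, with 7 genes higher and 3 lower in replicate 2, among them Mir141 at a ratio of 1.67 and Mir429 at 0.882. Other microRNAs known from liver, gut or pancreas held 1126 CPM in replicate 2 and 1128 CPM in replicate 1. Most of that came from Mir148a at 917 ± 3.05 CPM, which many tissues express, followed by Mir31 at 161 ± 11.8 CPM (SD, n = 2).

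Within that list, 3 of 8 genes reached 10 CPM in both libraries, and none of the 8 was at 0. The third was the endocrine Mir375, with 257 counts in replicate 2 (48.7 CPM) and 132 in replicate 1 (29.5 CPM), higher in replicate 2. Mir802, known from liver, gut and pancreas, had 18 counts in replicate 2 and 19 in replicate 1, a ratio of 0.804 on few counts. The pancreatic Mir216a, Mir216b and Mir217 had at most 8 counts in either library, and Mir147 had 22 in replicate 2 and 19 in replicate 1. By sense counts, white blood cell markers held 331 CPM in replicate 2 and 318 CPM in replicate 1, led by Mir223 (mean 160.4 CPM) and Mir155 (mean 156 CPM). Of the 5 genes of this list 4 were analysed here, without Mir142, and Mir142b had 0 sense counts but 4951 opposite-strand counts in replicate 2 and 4901 in replicate 1. With reads of either strand the list's mean was 1281 CPM, against 324 CPM for sense counts. The endothelial Mir126a stood at 68770 CPM in replicate 2 and 67024 CPM in replicate 1. The heart muscle sum was 61932 CPM in replicate 2 and 63961 CPM in replicate 1. That sum holds Mir1a-1 and Mir133a-1 without reads that fit several copies, so it does not rank heart muscle against other lists. Of these lists, the erythroid sum alone differed by more than 1.5-fold between libraries.

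**Figure D4:**
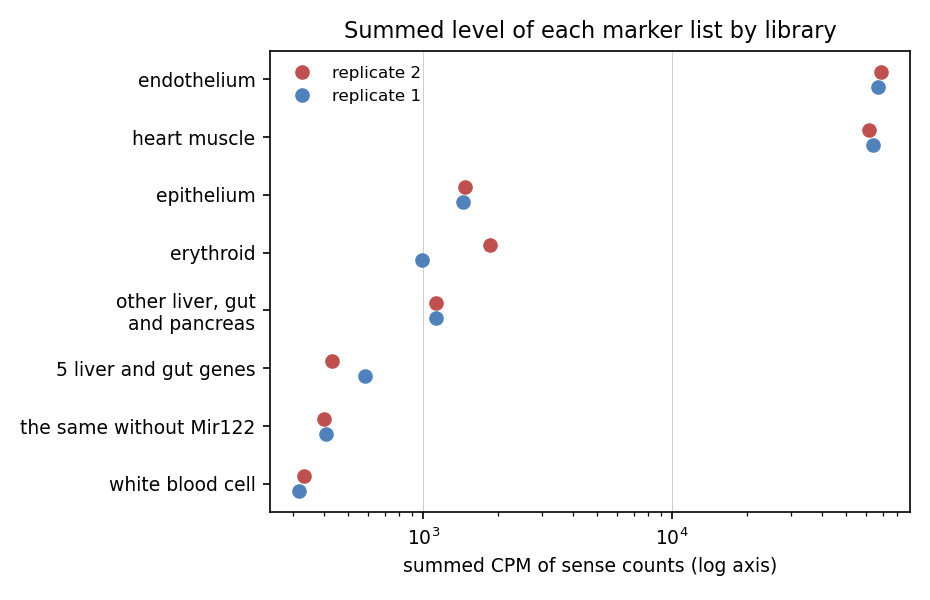
Summed CPM of sense counts (log axis) of each marker list in replicate 2 (upper red point of each row) and replicate 1 (lower blue point). The white blood cell sum leaves out the reads opposite Mir142b. With reads of either strand, that list's mean was 1281 CPM, against 324 CPM for sense counts. The erythroid sum was higher in replicate 2 (1858 CPM, against 986 CPM in replicate 1), carried by Mir451a. The other 2 erythroid genes were lower, of which Mir144 was not called by the exact binomial test. The 5 liver and gut genes were lower in replicate 2 (430.1 CPM, against 586 CPM in replicate 1). Without Mir122 the points of the liver and gut genes nearly meet.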

How the data were processed

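Small RNA of 2 heart libraries was analysed. The authors deposited raw counts of reads per microRNA gene, 1 table per library, on mm10 with annotation M4 per the file headers of the deposited descriptions. For the alignment and counting, no tool is given in the sources used here. A table has 3 unnamed count columns, read from their sums as without regard to strand, sense and opposite strand. Sense counts were used. Rows that name no gene were kept out. Among them were reads that fit several places (25.3% of all reads in replicate 2 and 27.1% in replicate 1). Reads that were not mapped made up 19.1% and 18.1%, and reads outside microRNA genes or on their opposite strand 5.88% and 6.29%.

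Names and positions came from GENCODE M21, which held 1894 of 1973 identifiers, and sequences from RefSeq for GRCm38.p6. Hairpins were compared over M21 transcripts, on both strands. CPM was taken over all sense gene counts, with no pseudocount in ratios. The exact binomial test used an adjusted p of 0.05 and was tested on simulated data. These simulated counts had Poisson counting error alone, so further spread between replicates was not part of that trial. With 1 group, no model of conditions could be fitted. Scaling alternatives came from edgeR 4.0.16 (TMM) and DESeq2 1.42.0 in R 4.3.3. Other steps used Python 3.11.15 with pandas 2.3.3, numpy 2.4.6 and scipy 1.17.1, and matplotlib 3.10.9 for plots.

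The genes and marker lists were chosen with earlier results of these data known. Named are the members, the 2 genes on either side by mean level, the 3 nearest by log2 ratio among genes of at least 10 CPM, annotated genes within 10 kb, all heart muscle and erythroid markers and the 2 highest of each other list. Mir141, Mir375, Mir802, Mir147, Mir216a, Mir216b, Mir217 and Mir142b were named after their values were seen.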

Additional observations from a re-analysis of the deposited data

Results flagged for a closer look

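Reads outside the sense counts stood above the limit that a count of 0 allows. Reads that fit several places made up 25.3% of all reads in replicate 2 and 27.1% in replicate 1, and how many of them are miR-194-5p was not analysed here. Among the marker genes, opposite-strand counts were above 3 in both libraries at Mir142b (mean 1016 CPM of the sense total), Mir486 (7.75 CPM), Mir203 (6.65 CPM) and Mir126a (5.19 CPM). At the liver and gut genes they were 2 counts at Mir122 in each library and 0 at the other 4. Groups of 2 libraries were not tested for single outlying samples.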

How the results depend on the processing

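With CPM over all reads, levels were lower by about the share of reads counted to genes. Means were 51.9 for Mir122, 24.4 for Mir192, 18.3 for Mir194-1, 21.04 for Mir194-2, 134 for Mir215 and 249 CPM for the 5 genes together. Likewise the lists gave 30931 (heart muscle), 702 (erythroid), 717 (epithelium), 554 (other liver, gut and pancreas), 33376 (endothelium) and 159 CPM (white blood cell). Without regard to strand, Mir215 stood at 259.8 CPM, and the lists at 60182 (heart muscle), 1403 (epithelium), 1078 (other liver, gut and pancreas), 64925 (endothelium) and 1281 CPM (white blood cell). That last value includes the reads opposite Mir142b. The log2 ratio of Mir194-1, 0.39, was not called, and it was called over all reads (0.43) and with TMM (0.41). Mir122 was called under all 4 alternatives, at −2.47 to −2.44, and no ratio of a member changed sign. Genes past 2-fold numbered 2 with at least 50 counts and 202 with any count. The binomial test called 113 to 128 genes under its alternatives. Leaving out each replicate gave 32.4 to 181 CPM for Mir122, 268 to 276 CPM for Mir215, 47.3 to 52.0 CPM for Mir192, 40.3 to 45.3 CPM for Mir194-2 and 32.2 to 42.2 CPM for Mir194-1. The sum ran from 430.1 to 586 CPM and was 401.5 CPM without Mir122. The ratio of Mir192 to Mir215 ran from 0.177 to 0.189. With 1 library left, no ratio between libraries could be given. Depth limits Mir194-1 most, which had 144 counts in replicate 1.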
